A study of Mus musculus with 36 samples.

Results

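Serotonin is made from tryptophan by tryptophan hydroxylase and aromatic amino acid decarboxylase, packed into vesicles, released, taken back up by a membrane transporter and broken down by monoamine oxidase. The mRNAs of these steps were followed here in hypothalami of male C57BL/6 mice after injection of TNFα, IL-6 or both. The neuronal hydroxylase and the serotonin transporter are made almost only by serotonergic neurons, whose cell bodies lie in the raphe nuclei of the brainstem and whose fibres reach the hypothalamus. The vesicle transporter, the cofactor enzymes and the decarboxylase are shared with dopaminergic neurons.

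The genes were 10 chosen by symbol, Tph2, Tph1, Gch1, Spr, Slc6a4, Slc18a2, Slc17a8, Maoa, Maob and Fev, out of 18820 genes with a transcript cluster (a set of array probes) of their own. For each gene the cluster annotated to that symbol alone was taken, and the cluster of highest mean where there was more than 1. Of the 10, 9 had such a cluster, and Fev, a transcription factor of serotonergic neurons, was not analysed here. Of these 9, 8 were among the 15049 genes that exceeded an intensity of 20 on 3 or more arrays and were therefore tested, and Tph1 passed that minimum on 2 of 35 arrays and was fitted without it. The values are log2 intensities and levels of different genes were not set against each other because their probes differ.

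Mice of about 20 g received 50 μl intraperitoneally and were killed 5 h later, each mouse having its own array (Affymetrix Mouse Gene 1.1 ST), with 6 mice in each of 6 groups. The TNF group received 15 pg TNFα, the IL-6 Low group 50 pg IL-6 and the IL-6 High group 800 pg IL-6. Mice of the TNF + IL-6 Low group were given 50 pg IL-6 with 15 pg TNFα, those of the TNF + IL-6 High group 800 pg IL-6 with 15 pg TNFα, and Control mice saline alone. TNF replicate 4 was left out, since its values correlated poorly with every other array (median r = 0.205, where the remaining 35 had 0.983 to 0.992), which left 5 arrays in TNF. The tissue was labelled hypothalamus, and 13 of 14 hypothalamic marker genes passed the minimum intensity, with a mean level of 7.01 to 7.43 in TNF, 6.98 to 7.54 after IL-6 Low, 6.90 to 7.75 after IL-6 High, 6.74 to 7.41 after TNF + IL-6 Low, 6.42 to 7.51 after TNF + IL-6 High and 6.97 to 7.63 in Control.

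None of the 8 genes differed from Control after adjustment over all genes in any of the 5 treated groups (limma with Benjamini-Hochberg adjustment, smallest adjusted p = 0.511). The background was the same, with 0 of 15049 genes (0%) called in each of the 10 comparisons made. At an unadjusted p under 0.05, 1 of the 8 genes was counted in 4 of the 5 treated groups, Slc17a8 every time, and 0 of 8 after TNF + IL-6 High. The share of all genes counted in this way was 5.29% in TNF, 1.4% after IL-6 Low, 2.07% after IL-6 High, 9.58% after TNF + IL-6 Low and 2.05% after TNF + IL-6 High. These 5 comparisons share the same Control arrays and are not independent of each other.

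The median difference over the 8 genes was 0.33 in TNF, 0.14 after IL-6 Low, 0.09 after IL-6 High, -0.02 after TNF + IL-6 Low and 0.09 after TNF + IL-6 High. Over all genes the median lay between -0.02 and 0.01. Single arrays moved the medians of the 8 genes, which were 0.0802 in TNF without TNF replicate 5 (6 of 8 higher, 0 over a fold of 1.5), 0.0609 after IL-6 Low without replicate 6, -0.0436 after IL-6 High without replicate 4 and -0.0138 after TNF + IL-6 High without replicate 2. For TNF + IL-6 Low they lay between -0.0651 without replicate 1 and 0.0177 without Control replicate 4. For the mean of the 5 treated groups the median was 0.0926, between 0.0537 without Control replicate 1 and 0.19 without Control replicate 4. In TNF 7 of 8 were higher than Control, where 55.4% of all genes were, and after IL-6 Low 8 of 8, where 45.9% were. After IL-6 High 6 of 8 were higher (52.6% of all genes), after TNF + IL-6 Low 4 of 8 (44.1%) and after TNF + IL-6 High 5 of 8 (37.7%). A fold of 1.5 was exceeded in TNF by 2 of 8, Tph2 and Slc6a4, where 0.153% of all genes did so upwards, and by 0 of 8 after IL-6 Low (0.0199% of all genes), IL-6 High (0.0133%), TNF + IL-6 Low (0.173%) or TNF + IL-6 High (0.0598%). For the mean of the 5 treated groups 7 of 8 were higher (46.1% of all genes), and 1 of 8, again Slc17a8, had an unadjusted p under 0.05 (3.08%). The test for any difference among the 6 groups gave 0 of 8 at that level (3.01%).

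**Figure D1:**
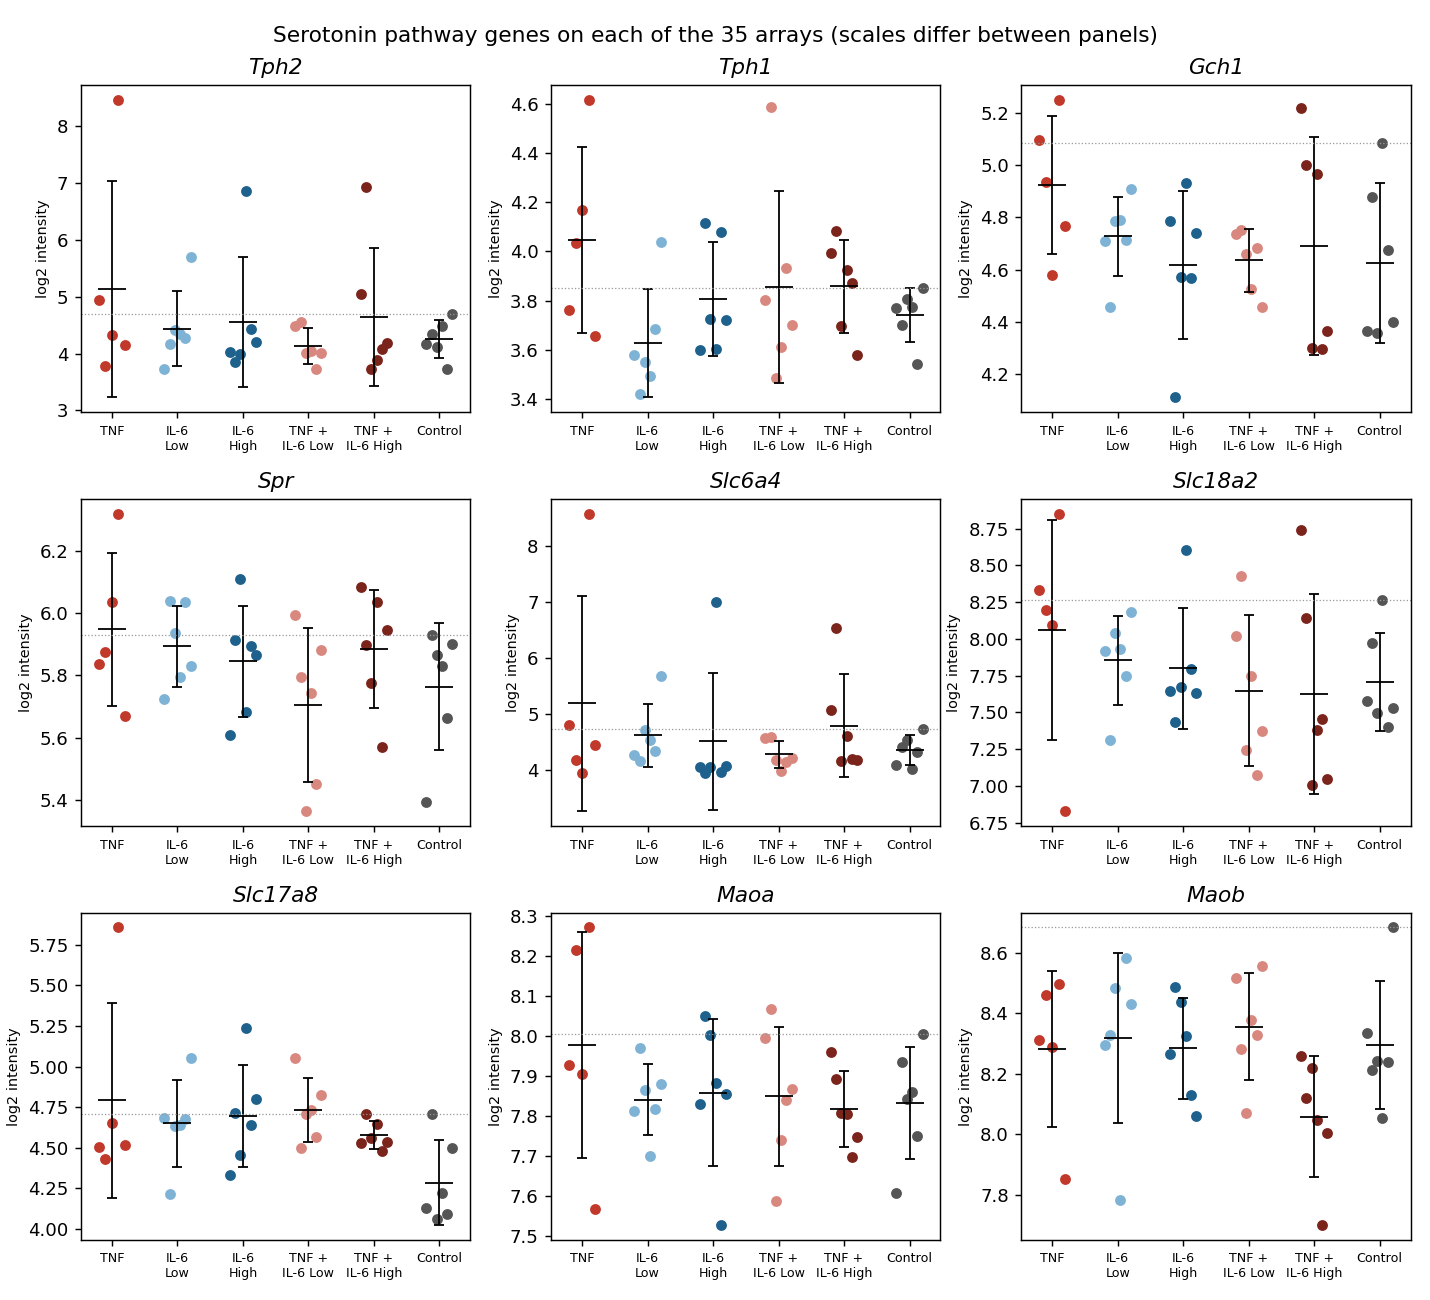
Log2 intensity of the 9 measured genes on each of the 35 arrays (points), with black lines for the group mean and SD and the highest Control array as a dotted line. Tph2 and Slc6a4 are at 8.47 and 8.58 on TNF replicate 5 and near the Control level on most arrays, while the points of Slc17a8 lie above the Control median of 4.18 on all 29 treated arrays.

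Tph2 encodes tryptophan hydroxylase 2, the rate-limiting enzyme of serotonin synthesis in neurons. Its log2 intensity in TNF was 4.95, 3.79, 4.33, 8.47 and 4.16 on replicates 1, 2, 3, 5 and 6. The lowest, median and highest values were 3.73, 4.31 and 5.70 after IL-6 Low, 3.86, 4.11 and 6.86 after IL-6 High, 3.73, 4.03 and 4.56 after TNF + IL-6 Low, and 3.73, 4.13 and 6.94 after TNF + IL-6 High. In Control they were 3.74, 4.25 and 4.69. Every treated group overlapped the Control range, and 6 of 29 treated arrays lay above the highest Control array, 2 of them in TNF, 1 after IL-6 Low, 1 after IL-6 High and 2 after TNF + IL-6 High.

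The means of Tph2 were 5.14 ± 1.91 in TNF (SD, n = 5), 4.64 ± 1.22 after TNF + IL-6 High, 4.56 ± 1.14 after IL-6 High, 4.44 ± 0.66 after IL-6 Low and 4.14 ± 0.32 after TNF + IL-6 Low (SD, n = 6 each), against 4.25 ± 0.33 in Control (SD, n = 6). Control lay just below IL-6 Low, and no neighbours in this order were further apart than the SD of the more variable of the pair, and the widest gap, between TNF and TNF + IL-6 High, was 0.50. The difference from Control in TNF was 0.89 (SE 0.57, 95% interval -0.26 to 2.03), a 1.85-fold higher mean, with limma adjusted p = 0.911. It was 0.054 without TNF replicate 5, and the difference of the medians was 0.08. In 3 further groups the difference depended on 1 array in the same way and was negative without it, at -0.07 after IL-6 Low without replicate 6, -0.15 after IL-6 High without replicate 4 and -0.07 after TNF + IL-6 High without replicate 2. For TNF + IL-6 Low it was -0.11, and -0.22 to -0.026 when single arrays were left out.

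The level of Tph2 was close to the minimum for detection used here: an intensity of 20 was passed on 15 of 35 arrays, of which 3 of 5 were in TNF, 3 of 6 after IL-6 Low, 2 of 6 after IL-6 High and in each combination group, and 3 of 6 in Control. Less RNA per cell and fewer cells of a type cannot be told apart in such bulk tissue.

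Slc6a4 encodes the plasma membrane transporter that takes serotonin back into the neuron. In TNF it was at 4.80, 4.18, 3.95, 8.58 and 4.45 on replicates 1, 2, 3, 5 and 6. The lowest, median and highest values were 4.17, 4.44 and 5.69 after IL-6 Low, 3.95, 4.05 and 6.996 after IL-6 High, 3.99, 4.20 and 4.60 after TNF + IL-6 Low, 4.17, 4.41 and 6.53 after TNF + IL-6 High, and 4.03, 4.37 and 4.73 in Control. As for Tph2, 6 of 29 treated arrays stood above the Control range, and all groups overlapped it. The difference from Control in TNF was 0.84 (SE 0.54, 95% interval -0.25 to 1.92), a fold of 1.79 with limma adjusted p = 0.911. Without TNF replicate 5 it was -0.010, and the medians differed by 0.07. The means of its groups had nearly the order of those of Tph2, with 5.19 ± 1.92 in TNF (SD, n = 5), 4.80 ± 0.92 after TNF + IL-6 High, 4.62 ± 0.56 after IL-6 Low, 4.52 ± 1.22 after IL-6 High and 4.28 ± 0.25 after TNF + IL-6 Low (SD, n = 6 each), against 4.36 ± 0.27 in Control (SD, n = 6), which lay just below IL-6 High, and again no gap between neighbours was wider than their larger SD.

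The levels of Tph2 and Slc6a4 varied together from mouse to mouse within the groups. Over the 35 arrays, with the mean of each group taken off, Pearson's r was 0.96 (permutation p = 1e-05, two-sided and the smallest that the 100000 resamples can give, adjusted p = 0.00018 over 36 pairs of genes) and Spearman's rho was 0.855 (adjusted p = 0.00036). Without the 2 arrays farthest from the median of Tph2, TNF replicate 5 and TNF + IL-6 High replicate 2, r was 0.906 and rho 0.655. It was 0.895 and 0.959 among the arrays whose names start with E (6 arrays) and F (12 arrays), and 0.965 and 0.986 among those with G (11 arrays) and H (6 arrays).

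The first 300 bases around the start of both genes are given because their mRNAs varied together across the arrays. They are from RefSeq on build GRCm38.p6, with 250 bases before and 50 after the start, and the capitals mark GGAA on either strand (written TTCC on the opposite one), the core letters that transcription factors of the ETS family, to which Fev belongs, are known to bind.
Tph2, chr10:115184973-115185272, minus strand: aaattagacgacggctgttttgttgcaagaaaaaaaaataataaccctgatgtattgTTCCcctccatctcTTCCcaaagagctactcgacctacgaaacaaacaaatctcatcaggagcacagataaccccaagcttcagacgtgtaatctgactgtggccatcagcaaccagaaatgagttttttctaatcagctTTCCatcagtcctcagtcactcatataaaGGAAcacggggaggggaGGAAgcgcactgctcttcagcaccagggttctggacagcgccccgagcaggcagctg
Slc6a4, chr11:76998347-76998646, plus strand: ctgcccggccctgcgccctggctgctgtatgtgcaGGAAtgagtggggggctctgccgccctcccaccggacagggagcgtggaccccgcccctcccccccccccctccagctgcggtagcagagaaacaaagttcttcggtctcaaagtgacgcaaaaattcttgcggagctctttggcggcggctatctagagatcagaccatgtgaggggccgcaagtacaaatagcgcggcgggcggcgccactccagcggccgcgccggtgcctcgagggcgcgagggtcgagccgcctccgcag
The letters occur 5 times in the window of Tph2 and 1 time in that of Slc6a4. They are common, being found in 96% of 32851 such windows with a median of 3, so that the matches are a description only. The letters TATAAA, searched on both strands with no overlap with GGAA, were found 1 time for Tph2 and 0 times for Slc6a4, and in 13.6% of all windows.

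The genes whose levels were most like that of Tph2 over the 35 arrays, after Slc6a4, were Ermp1 (r = 0.86), Nkx2-9 (0.853), Klk6 (0.851), Gjb1 (0.84) and Fbxo32 (0.82), followed by Mtmr10, Syt2, Nde1 and Nefh. Klk6 and Gjb1 are known from oligodendrocytes, Nkx2-9 from the ventral midline of the developing neural tube and Nefh, the heavy neurofilament, from large projection neurons. Slc6a4 shared Ermp1, Nkx2-9, Klk6, Fbxo32, Mtmr10 and Nde1 with this list, and had Pip4k2a, Rln3 (r = 0.797) and Slc17a8 (0.79) in addition. These r values, like all others given here, are of deviations from the group means, share the same arrays and are a description of them.

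Rln3 encodes relaxin-3, a neuropeptide made mainly in the nucleus incertus of the brainstem. It was at 7.63 on TNF replicate 5, at 5.44 on TNF + IL-6 High replicate 2, at 5.64 on IL-6 High replicate 4 and at 4.93 on IL-6 Low replicate 6, the 4 arrays of highest Tph2. On the other 31 arrays it ranged from 4.28 to 5.88, so that only TNF replicate 5 exceeded them. Gata3, a transcription factor that serotonergic neurons also use, was at 6.41, 6.65, 6.54 and 5.42 on these 4 arrays in the same order, and at 3.76 to 5.58 on the other 31, which 3 of the 4 exceeded. These genes were picked for their likeness or after their values were seen, and the levels are a description. Nkx2-9 reached 7.07 and 6.78 on the first 2 of the 4, above its highest value of 6.01 on the other 31, and 5.90 and 5.82 on the remaining pair, within that range.

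Markers of serotonergic neurons differed in their likeness to Tph2. Of a list of 10 raphe markers, 9 had a cluster and all 9 passed the minimum intensity. Their r with Tph2 was -0.00376 and 0.0146 for the receptor genes Htr5b and Htr1a, and 0.176 for the transcription factor Lmx1b. It was 0.395 for Gata2, 0.444 for En2, 0.445 for Sncg, 0.596 for En1, 0.671 for Ddc and 0.797 for Gata3. The mean of the 9 was 5.74 to 6.58 in TNF, 5.67 to 6.09 after IL-6 Low, 5.75 to 6.46 after IL-6 High, 5.70 to 6.21 after TNF + IL-6 Low and 5.73 to 6.31 after TNF + IL-6 High, against 5.68 to 6.14 in Control. Its r with Tph2 was 0.772 over the 35 arrays. The mean of the midbrain dopaminergic markers, a list that shares En1 with the raphe list, had 0.687. That of the dorsal midbrain markers, of which 2 of 4 were tested, had 0.60. Of the 9 markers 8 were higher in TNF than in Control (55.4% of all genes), with a median difference of 0.20 and 0 called. Among these 8 was the homeobox gene En2 at 0.65 (SE 0.23, limma adjusted p = 0.911). The highest mean of the 9, 6.58, was that of TNF replicate 5. After IL-6 Low 6 of 9 were higher (45.9% of all genes) and after IL-6 High 8 of 9 (52.6%), with medians of 0.03 and 0.07. In each combination group 4 of 9 were higher (44.1% and 37.7%), with medians of -0.02 and -0.01.

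The hypothalamic markers went the other way. Each of the 13 tested had a negative r with Tph2, from -0.0713 for Pomc to -0.58 for Sim1, and their mean had an r of -0.574. This mean was 7.01 on TNF replicate 5, 6.42 on TNF + IL-6 High replicate 2, 6.90 on IL-6 High replicate 4 and 6.98 on IL-6 Low replicate 6, all below the median of 7.31 on the other 31 arrays, while 3 of the 4 lay within their range of 6.74 to 7.75. Of 7 hindbrain Hox genes 2 passed the minimum, and their mean was 4.56 to 5.00 in TNF and 4.52 to 4.82 in Control. The part of these markers in the level of Tph2 and Slc6a4 was not tested.

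**Figure D2:**
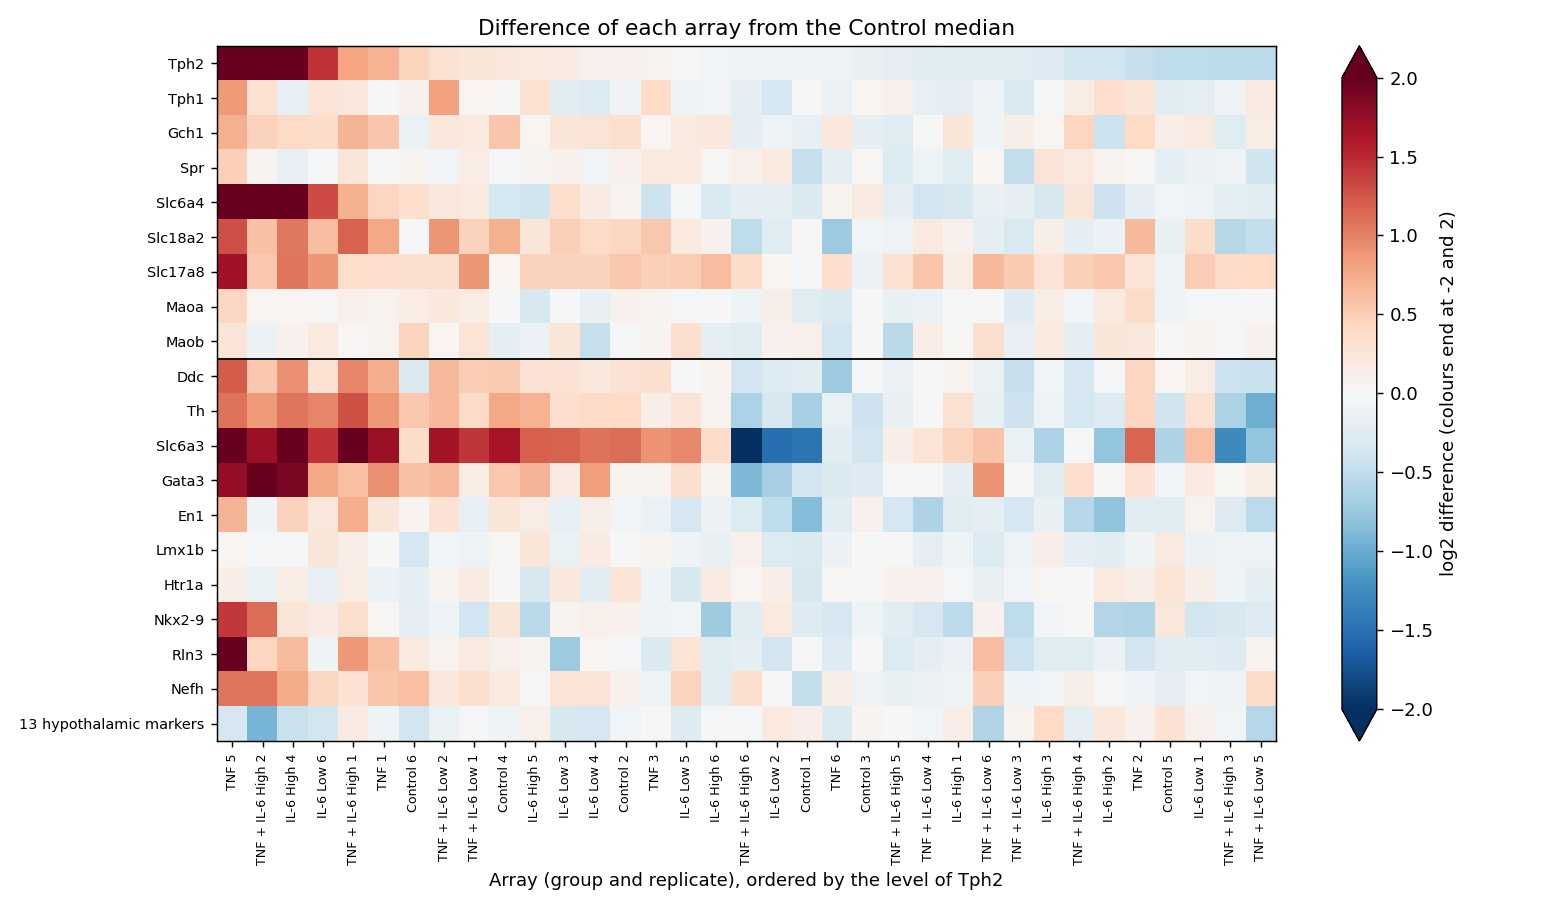
Log2 difference from the Control median for the 9 measured genes (above the line) and 11 other genes or marker means (below it) on each of the 35 arrays, which are ordered by their level of Tph2. TNF replicate 5, TNF + IL-6 High replicate 2, IL-6 High replicate 4 and IL-6 Low replicate 6 stand at the left with Tph2 at 8.47, 6.94, 6.86 and 5.70. Lmx1b and Htr1a vary little along the row, while Gata3 on 3 of these 4 arrays exceeds its level on the other 31.

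Slc18a2 encodes the vesicular monoamine transporter VMAT2, which loads serotonin, dopamine and noradrenaline into vesicles. It was detected on all 35 arrays, at 8.33, 8.20, 8.09, 8.85 and 6.83 on replicates 1, 2, 3, 5 and 6 of TNF. The lowest, median and highest values were 7.31, 7.92 and 8.18 after IL-6 Low, 7.44, 7.66 and 8.61 after IL-6 High, 7.07, 7.56 and 8.43 after TNF + IL-6 Low and 7.003, 7.42 and 8.74 after TNF + IL-6 High, against 7.40, 7.55 and 8.26 in Control. TNF held both the highest and the lowest array of all groups. The difference from Control was 0.36 in TNF (SE 0.28, limma adjusted p = 0.911), or 0.16 without replicate 5 and 0.66 without replicate 6, and lay between -0.08 and 0.15 in the remaining groups.

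Slc18a2 was most like genes that dopaminergic neurons express, some of which serotonergic neurons share. Its r was 0.973 with Ddc, the decarboxylase of serotonin and dopamine synthesis, 0.911 with the nicotinic receptor subunit Chrna6 and 0.879 with Th, the tyrosine hydroxylase. Of 12 midbrain dopaminergic markers 11 had a positive r with Slc18a2, with Pitx3 at -0.372 as the exception, and the mean of the 12 had an r of 0.905. The mean of the 9 raphe markers, which include Ddc and Sncg and share En1 with the dopaminergic list, had an r of 0.901, so that these lists did not tell the neuron types apart. The mean of the 12 dopaminergic markers was 6.57 to 7.62 in TNF, 6.39 to 7.21 after IL-6 Low and 6.30 to 7.54 after IL-6 High. It was 6.37 to 7.27 after TNF + IL-6 Low and 6.28 to 7.65 after TNF + IL-6 High, against 6.13 to 7.25 in Control. Of the 12 markers 11 were higher in TNF than in Control (55.4% of all genes), with a median difference of 0.32 and 0 called. After IL-6 Low 11 were higher (45.9% of all genes), after IL-6 High 10 (52.6%), after TNF + IL-6 Low 6 (44.1%) and after TNF + IL-6 High 10 (37.7%). The medians were 0.15, 0.09, 0.03 and 0.03 in that order. The part of this neuron type in the level of Slc18a2 was not tested.

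**Figure D3:**
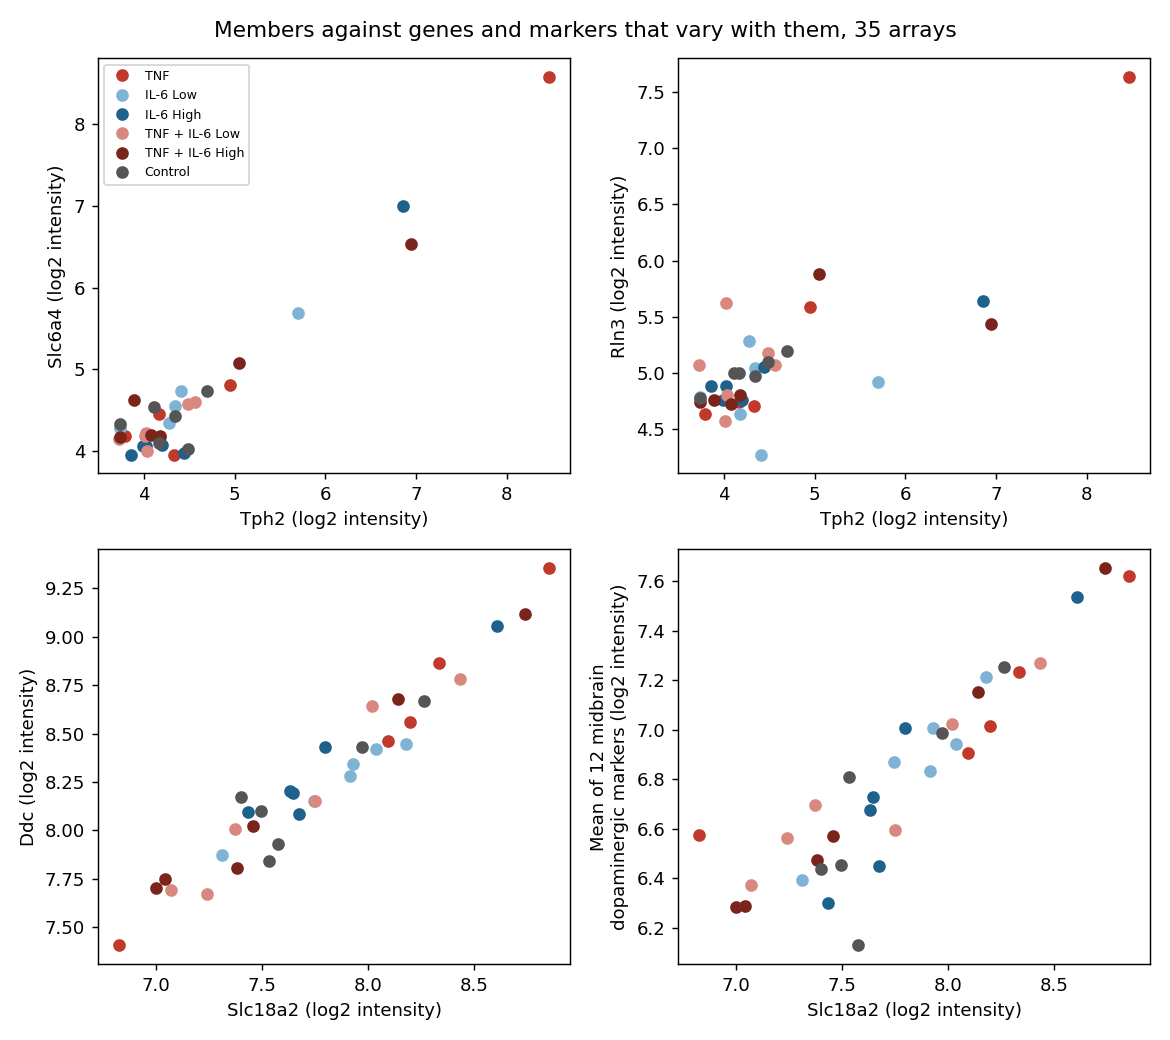
Log2 intensities on the 35 arrays, coloured by group, of Slc6a4 and Rln3 against Tph2 (upper panels) and of Ddc and the mean of 12 midbrain dopaminergic markers against Slc18a2 (lower panels). Points of all groups lie along one line for Slc6a4 (r = 0.96 after group means are taken off) and Ddc (r = 0.973), and TNF replicate 5 is at the upper end of both.

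Gch1 and Spr make tetrahydrobiopterin, the cofactor of the tryptophan and tyrosine hydroxylases, Gch1 at its first step and Spr at its last. Gch1 was at 5.09, 4.93, 4.58, 5.25 and 4.77 in TNF, and the 6 Control arrays ranged from 4.36 over a median of 4.54 to 5.08. Of the 5 TNF arrays 2 lay above the Control range. The difference was 0.30 in TNF (SE 0.16, limma adjusted p = 0.911) and between -0.01 and 0.10 in the remaining groups. Gch1 was most like Chrna6 (r = 0.782), Gsn (0.782) and Enpp6 (0.769) over the arrays, and its r with Slc18a2 was 0.69 (permutation adjusted p = 0.000216; rho 0.697, adjusted p = 0.00036) and 0.592 without the 2 arrays farthest from the median of Slc18a2.

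Spr was at 5.84, 5.87, 6.04, 6.32 and 5.67 in TNF, against 5.39 to 5.93 in Control with a median of 5.85. Its difference from Control was 0.18 in TNF (SE 0.12, limma adjusted p = 0.911), or 0.0901 without replicate 5, and between -0.06 and 0.13 in the remaining groups, and all groups overlapped. A second cluster of Spr, with a lower mean of 3.37, was not used. It was at 0.03 in TNF and had an r of -0.185 with the cluster used, so that the pair did not vary alike.

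Tph1, the hydroxylase of the gut and the pineal gland, was low on nearly all arrays. It was at 3.76, 4.03, 4.17, 4.62 and 3.66 in TNF and at 3.54 to 3.85 in Control, and 3 TNF arrays lay above the Control range. Without a filter on intensity the difference was 0.31 in TNF (SE 0.15, limma adjusted p = 0.925), or 0.16 without replicate 5, and between -0.11 and 0.12 in the remaining groups. Of 7 pineal markers 3 passed the minimum, with a mean of 4.66 to 4.86 in TNF and 4.62 to 4.89 in Control. Of 8 mast cell markers 2 did, with a mean of 5.73 to 6.18 in TNF and 5.78 to 6.17 in Control.

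Slc17a8 encodes the vesicular glutamate transporter VGLUT3, which part of the serotonergic neurons carry. It was the only one of the 8 genes that was higher than the Control median on each of the 29 treated arrays, a pattern found for 3 of all 15049 genes (0.0199%), and the only one whose mean was higher in each of the 5 treated groups (13.5%). The values in TNF were 4.51, 4.43, 4.66, 5.86 and 4.51. The lowest, median and highest were 4.22, 4.66 and 5.05 after IL-6 Low, 4.33, 4.68 and 5.24 after IL-6 High, 4.50, 4.72 and 5.05 after TNF + IL-6 Low and 4.48, 4.55 and 4.71 after TNF + IL-6 High, against 4.06, 4.18 and 4.71 in Control. All groups overlapped the Control range. The 2 highest Control arrays were at 4.71 and 4.50, and 9 of 29 treated arrays lay above the higher of them. IL-6 Low replicate 2, at 4.216, also lay below Control replicate 4, at 4.222. The level was near the minimum for detection, which 5 of 5 arrays in TNF, 5 of 6 after IL-6 Low, all 6 in each of the other treated groups and 2 of 6 Control arrays passed. The gene thus passed the filter through its treated arrays, and the Control median lies below the minimum. The shares of all genes given above for Slc17a8 are therefore a description and no support for a difference.

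The difference of Slc17a8 from Control was 0.51 in TNF (SE 0.18), 0.37 after IL-6 Low (SE 0.17), 0.41 after IL-6 High (SE 0.17), 0.45 after TNF + IL-6 Low (SE 0.17) and 0.29 after TNF + IL-6 High (SE 0.17). In the same order the limma p was 0.00685, 0.0373, 0.0201, 0.0122 and 0.0924 without adjustment, and 0.511 to 1 with adjustment over all genes. In TNF it was 0.24 without replicate 5. Two-sided exact permutation of the arrays gave unadjusted p values of 0.0108 to 0.0368 in the 5 groups, among 45 such tests of the 9 measured genes, where the smallest possible for 6 arrays a group is 0.00216. That test was not run on all genes. The 5 groups share the same 6 Control arrays, so that these p values are not independent. Only 2 of the 6 passed the minimum intensity, and the gene was tested because of its treated arrays. For the mean of the 5 treated groups the difference was 0.40 (SE 0.13, 95% interval 0.14 to 0.67, limma unadjusted p = 0.00393), and adjusted over all genes the p was 1. It stayed between 0.35 without TNF replicate 5 and 0.49 without Control replicate 2 when single arrays were left out. Within each of the 4 letters that start the array names, the mean of every treated group was above that of Control, with differences from 0.02 to 1.70. Letters E and H hold 1 array of each group, and F and G at most 2, so that many of these means are single arrays. The hypothalamic markers went the other way in this comparison, 11 of 13 being lower with a median of -0.13 and 0 called. Of all genes 46.1% were higher in it. By group, 11 of 13 markers were lower in TNF and in each combination group, and 12 after IL-6 Low. After IL-6 High, where Slc17a8 was also higher, 9 of 13 were higher, with a median of 0.04. The r of the mean of these markers with Slc17a8 was -0.462. Their part in the difference was not tested.

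The order of the treated groups in Slc17a8 was TNF at 4.79 ± 0.60 (SD, n = 5), TNF + IL-6 Low at 4.73 ± 0.20, IL-6 High at 4.70 ± 0.32, IL-6 Low at 4.65 ± 0.27 and TNF + IL-6 High at 4.58 ± 0.09 (SD, n = 6 each), with Control at 4.29 ± 0.26 (SD, n = 6). Neighbours among the treated groups were at most 0.07 apart, which is less than their SD, while the step from TNF + IL-6 High to Control was 0.29. TNF and IL-6 together gave less than the sum of their separate differences for Slc17a8, by 0.43 with IL-6 Low (log2 difference -0.43, SE 0.24) and by 0.63 with IL-6 High (-0.63, SE 0.24), and neither passed (limma adjusted p = 0.991 and 0.961). Without TNF replicate 5 these were -0.16 and -0.36. The genes of closest likeness were Slc6a4 (r = 0.79), Nde1 (0.766) and Tph2 (0.763). Without the 2 arrays farthest from the median of Tph2 its r with Tph2 was 0.61. Without the 2 farthest from that of Slc6a4 its r with Slc6a4 was 0.374, so that this Pearson's r rested largely on those arrays. Spearman's rho over the 35 arrays was 0.524 with Tph2 (permutation adjusted p = 0.00558) and 0.557 with Slc6a4 (permutation adjusted p = 0.00329).

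**Figure D4:**
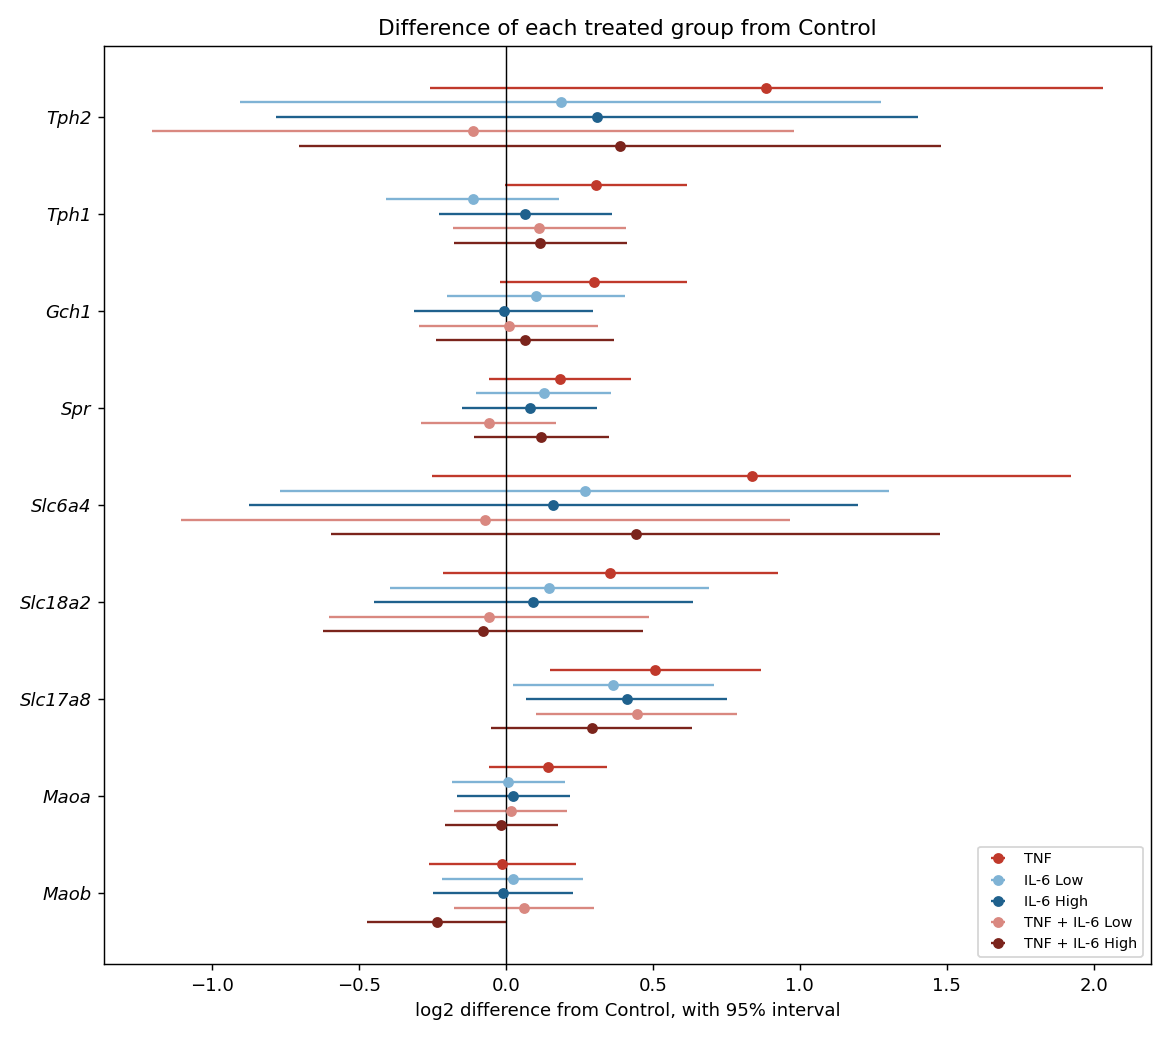
Log2 difference of each treated group from Control for the 9 measured genes, with the 95% interval of the limma fit over 35 arrays (unadjusted; Tph1 from the fit without a filter). The intervals of Slc17a8 lie above 0 in 4 treated groups, TNF + IL-6 High being the exception, those of Tph2 and Slc6a4 are the widest and include 0, and those of Maoa lie between -0.21 and 0.35.

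Maoa and Maob encode the monoamine oxidases, of which the A form prefers serotonin and the B form is found in glia and in serotonergic neurons. Both were detected on all 35 arrays, with SDs within the groups of 0.09 to 0.28 for Maoa and 0.17 to 0.28 for Maob. Maoa was at 7.93, 8.21, 7.90, 8.27 and 7.57 in TNF and at 7.61 to 8.00 in Control, with a difference of 0.14 (SE 0.10, limma adjusted p = 0.911), or 0.0703 without TNF replicate 5 and 0.25 without replicate 6. In the remaining groups its difference lay between -0.02 and 0.02, with 95% intervals between -0.21 and 0.22. Maob was at 8.31, 8.46, 8.29, 8.50 and 7.85 in TNF and at 8.05 to 8.68 in Control, a difference of -0.01 (SE 0.12, limma adjusted p = 0.998). Its widest difference was after TNF + IL-6 High, at -0.24 (SE 0.12, 95% interval -0.47 to 0.0037, limma unadjusted p = 0.0535), where the values of 7.70 to 8.26 overlapped the Control range. In that group 3 of 6 arrays lay below every Control array. Its mean was below that of Control within each of the 4 array letters, by -0.68 to -0.06, some of these means being single arrays. No treated array lay above the highest Control array for Maob, and 4 of 29 did for Maoa. The r between both was 0.641 (permutation adjusted p = 0.00036; rho 0.588, adjusted p = 0.00198), or 0.594 without the 2 arrays farthest from the median of Maoa, and Maoa was most like Lrpprc (0.869), which acts in mitochondrial RNA stability.

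Over the 36 pairs of the 9 measured genes, 21 had a permutation adjusted p under 0.05 for Pearson's r, all of them positive, and 14 of these also for Spearman's rho. Spr and Maoa had an r of 0.634 (adjusted p = 0.00018; rho 0.62, adjusted p = 0.00099), or 0.541 without the 2 arrays farthest from the median of Spr, and Gch1 and Maob one of -0.0155 (adjusted p = 0.929; rho -0.0106, adjusted p = 0.952).

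TNF replicate 5 was the highest of the 35 arrays for 8 of the 9 measured genes, Maob being the exception. Of these 35 it also had the lowest median r, 0.9826, though TNF + IL-6 Low replicate 5 was close at 0.9827. The median of all log2 values was lowest on it too, at 5.534, with TNF + IL-6 High replicate 1 next at 5.544. The share of all genes that peaked on TNF replicate 5 was not determined, so the count of 8 has no background to be judged by. Departures from additive effects of TNF and IL-6 were negative for 7 of the 8 tested genes with IL-6 Low and for 8 of 8 with IL-6 High, where 44.1% and 38.2% of all genes were above 0. Without TNF replicate 5, which enters both, 7 of 8 and 6 of 8 were negative, and the median of the 8 was -0.29 with IL-6 Low and -0.13 with IL-6 High, against -0.41 and -0.38 with all arrays. Spr with IL-6 Low was at -0.37 (SE 0.16, limma adjusted p = 0.991). In each of the 2 sets 1 of 8 had an unadjusted p under 0.05, where 3.28% and 4.01% of all genes did. The 3 groups with TNF against the 3 without gave 6 of 8 higher (45.8% of all genes), or 3 of 8 without TNF replicate 5, and 0 of 8 at an unadjusted p under 0.05, where 5.99% of all genes were counted.

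The rest of the pathway was taken from lists of 38 further genes, of which 31 had a cluster and 29 were tested. In TNF 16 were higher and 13 lower than Control, after IL-6 Low 13 and 16, after IL-6 High 17 and 12, and in each combination group 12 and 17, with 0 called in every group. The median difference of the 3 carriers of tryptophan lay between -0.09 in TNF and 0.015 after IL-6 High, with 0 at an unadjusted p under 0.05 in any group. Of 5 cofactor genes 4 were higher in TNF (55.4% of all genes), among them Pts, which acts between Gch1 and Spr, at 0.21 (SE 0.10, limma adjusted p = 0.911). After IL-6 Low 2 of the 5 were higher, after IL-6 High 5, after TNF + IL-6 Low 3 and after TNF + IL-6 High 2. Ido2, of the kynurenine route that competes for tryptophan, was at -0.25 in TNF (SE 0.11, limma adjusted p = 0.911). Slc29a4, a low-affinity monoamine carrier, was at -0.23 after TNF + IL-6 Low (SE 0.09, limma adjusted p = 0.511). Slc17a7, the vesicular glutamate transporter VGLUT1, was at 1.41 in TNF (SE 0.61, limma adjusted p = 0.911), at 6.48, 7.59, 6.26, 9.13 and 9.53 on its 5 arrays and at 4.84 to 7.55 in Control. The mean of 6 cerebellar markers was 7.31 on TNF replicate 2 and 4.59 to 4.92 on the other 4 arrays of TNF, against 4.45 to 4.62 in Control, and without replicate 2 the difference of Slc17a7 was 1.46. The part of cerebellar or any other tissue in the level of Slc17a7 was not tested.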

How the data were processed

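Total hypothalamic RNA of 36 mice was hybridised to Affymetrix Mouse Gene 1.1 ST arrays. The log2 values were summarised by the authors with RMA (robust multi-array average) and used as deposited, for transcript clusters of the array. The version of RMA and the genome build are not given in the sources used here, and the remapped probe sets of the study were not used. Of 35556 clusters, 21218 name 1 gene, and the cluster of highest mean was taken where a gene had more than 1 (1386 genes). Genes needed an intensity over 20 on at least 3 arrays. TNF replicate 4 was left out by rule. The study excluded 1 TNF array without naming it.

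R 4.3.3 and limma 3.58.1 (lmFit, eBayes with an intensity trend) fitted 1 model over the 6 groups on 35 arrays, and p values were adjusted over 15049 genes by the Benjamini-Hochberg method with a threshold of 0.05. Each treated group and the mean of the 5 were compared with Control, as were any difference among the 6 groups, TNF across the levels of IL-6 and departures from additivity. Each of the 9 measured genes was also tested by two-sided exact permutation in each treated group. The fit was tested on simulated data. Genes beside the members were named where they were among the 3 of smallest p in a list or the 10 (for Tph2 and Slc6a4, otherwise 3) of highest r with a member. Rln3, Nkx2-9 and Gata3 levels on single arrays were chosen after their values were seen. The members, lists and tests were chosen with earlier results of these data known. Mice are taken as independent. For Control replicates 5 and 6 the labels and the array names give different mouse numbers, though both give Control. The labels call the TNF dose low, while the study had 1 dose of TNFα. Promoters were found in RefSeq for 9 of the 10 genes, Maob not among them. Alternatives tried were all 36 arrays, other filters, median centring, quantile normalization, array weights, no trend, fits of only the groups compared, group medians, all clusters of a gene, blocks and leaving out each array. The number of arrays limits the precision.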

Additional observations from a re-analysis of the deposited data

Results flagged for a closer look

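In 9 of 54 sets of 1 gene in 1 group, 1 array lay far from the others by Dixon's test at the 95% level, where chance gives about 1 in 20. The sets are not independent, since each array enters the set of every gene and genes such as Tph2 and Slc6a4 varied together. The count is therefore a description and no measure of an excess over chance. On TNF replicate 5 this held for Tph2 at 8.47 (next 4.95), Slc6a4 at 8.58 (next 4.80) and Slc17a8 at 5.86 (next 4.66). On IL-6 High replicate 4 it held for Tph2 at 6.86 (next 4.44), Slc6a4 at 6.996 (next 4.07) and Slc18a2 at 8.61 (next 7.79). On IL-6 Low replicate 6 it held for Tph2 at 5.70 (next 4.41) and Slc6a4 at 5.69 (next 4.73). Maob was low on IL-6 Low replicate 4, at 7.78 (next 8.30).

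TNF replicate 4, which entered no comparison above, had levels over the highest Control array for Tph2 (6.70 against 4.69), Tph1 (5.43 against 3.85), Gch1 (5.83 against 5.08), Spr (6.17 against 5.93), Slc6a4 (5.83 against 4.73) and Slc17a8 (5.71 against 4.71). The quartiles of all values on that array were 5.49 and 6.65, against 3.99 to 4.17 and 7.33 to 7.54 on the other 35.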

How the results depend on the processing

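None of the 54 differences of the 9 measured genes from Control (5 groups and their mean) was called under any of the settings with an adjusted p (smallest 0.3), and 0 genes were called in every comparison with any of them. The replicate numbers were not taken as pairs, since they name no shared animal and of 29 same-numbered pairs of arrays only 17 had a correlation of deviations over 0.1 (range -0.164 to 0.473), and 8 correlated best with their own number. With the replicate number as a block 0 genes were called, and all 54 differences kept their direction (smallest adjusted p = 0.44), as they did with the array letter as a block, with no filter, a minimum of 50, no trend and all clusters of a gene.

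Directions of small differences changed with some settings. With all 36 arrays the values were Maoa at -0.0906 after TNF and -0.0116 for the mean of the 5 groups. With median centring the values were Maob at 0.0211 after TNF and 0.00431 after IL-6 High, Gch1 at 0.00698 after IL-6 High, Maoa at 0.00136 after TNF + IL-6 High. With quantile normalization the values were Gch1 at 0.0143 after IL-6 High and -0.00093 after TNF + IL-6 Low, Maoa at 0.0141 after TNF + IL-6 High. With array weights the values were Maob at 0.0583 after TNF, 0.014 after IL-6 High and 0.0277 for the mean of the 5 groups, Maoa at -0.0143 after IL-6 Low, Slc18a2 at -0.0308 after IL-6 High, Gch1 at -0.0532 after TNF + IL-6 Low and -0.0815 after TNF + IL-6 High, Tph2 at -0.0291 after TNF + IL-6 High. As differences of medians the values were Tph2 at -0.14 after IL-6 High and -0.12 after TNF + IL-6 High, Tph1 at -0.0489 after IL-6 High and -0.0189 after TNF + IL-6 Low, Gch1 at 0.12 after IL-6 High, Slc6a4 at -0.32 after IL-6 High, Slc18a2 at 0.00574 after TNF + IL-6 Low, Maoa at -0.0101 after IL-6 Low, Maob at 0.0704 after TNF and 0.0551 after IL-6 High. The cause was not tested.

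Leaving out single arrays gave the following ranges where a direction changed. After TNF they were Slc6a4 at -0.00999 to 1.15 and Maob at -0.0665 to 0.0947. After IL-6 Low they were Tph2 at -0.0667 to 0.33, Maoa at -0.0377 to 0.0415 and Maob at -0.030 to 0.13. After IL-6 High they were Tph2 at -0.15 to 0.45, Gch1 at -0.0701 to 0.0933, Slc6a4 at -0.34 to 0.27, Slc18a2 at -0.0686 to 0.20, Maoa at -0.0203 to 0.0907 and Maob at -0.0585 to 0.0673. After TNF + IL-6 Low they were Tph1 at -0.0333 to 0.19, Gch1 at -0.0445 to 0.10, Spr at -0.13 to 0.00871, Slc6a4 at -0.14 to 0.00406, Slc18a2 at -0.21 to 0.0571 and Maoa at -0.0288 to 0.0688. After TNF + IL-6 High they were Tph2 at -0.0705 to 0.57, Gch1 at -0.0403 to 0.16, Slc18a2 at -0.30 to 0.0464 and Maoa at -0.0606 to 0.0186. For the mean of the 5 groups they were Maoa at -0.00976 to 0.0695 and Maob at -0.0828 to 0.043. Tph2, Slc6a4, Tph1 and, in Control, Slc17a8 lay near the minimum intensity used here.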
